A study of Danio rerio with 28 samples.

Results

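LCP1, ACTN1, CNN3, tmsb4x, ARPC1B and rac2 are 6 genes of the actin cytoskeleton, taken from the 32520 Ensembl gene IDs of a count table made from sorted zebrafish brain cells. LCP1 (ENSDARG00000023188), tmsb4x (ENSDARG00000077777), ACTN1 (ENSDARG00000007219) and one of 2 IDs named CNN3 (ENSDARG00000099510) were found by their IDs, and ARPC1B (ENSDARG00000027063) and rac2 (ENSDARG00000038010) by name. All 6 passed the filter on low counts in both experiments. The symbols come from a supplied table of names, which writes many zebrafish genes in human-style capitals, so that LCP1 here is the zebrafish gene.

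The study separated mpeg1+ cells of the adult brain, which the labels call microglia, by a reporter for the chemokine gene ccl34b.1. All fish were TgBAC(ccl34b.1:eGFP);Tg(mpeg1:DsRedx), with green protein under ccl34b.1 control and red protein driven by mpeg1, a macrophage gene. Untreated fish, 5 in number and 4 months old, made up one experiment. The injection experiment had 9 fish of 6 months: 2 controls, 4 injected with PBS, which is buffer with no bacteria, and 3 injected with E. coli. From every fish came 1 library of 100 ccl34b.1+mpeg1+ cells and 1 of 100 ccl34b.1-mpeg1+ cells, called ccl34b.1+ and ccl34b.1- here, so the 8 groups hold 5, 2, 4 and 3 libraries per gate. Cells of a gate were sorted in 3 technical replicates, from which 1 was chosen by cDNA quality for sequencing, and libraries of a group come from separate fish. A sort by reporter takes cells whose reporter protein is bright, which can differ from those whose transcript is abundant, and cells were released from tissue with trypsin.

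Actin assembles from single subunits into filaments that push the membrane forward when a leukocyte crawls or engulfs a particle. LCP1 (L-plastin) bundles filaments in blood cells, and ACTN1 (alpha-actinin 1) crosslinks them and ties them to adhesion sites. CNN3 (calponin 3) binds along the side of filaments, tmsb4x (thymosin beta 4) holds single subunits in reserve, and ARPC1B is a subunit of the Arp2/3 complex, which starts new branches on existing filaments. Rac2 is a small GTPase of blood cells that, as worked out in mice and humans, switches on branched assembly and the phagocyte oxidase.

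Library totals were 14237065 to 30370520 counts in untreated fish and 2241693 to 9691032 counts in the injection experiment. Counts are given here as CPM, which sets all libraries of an experiment to the same effective size, so levels in untreated and injected fish were not set on a common scale. Of 16 macrophage and microglia IDs, the summed level was 14883 to 19592 CPM in untreated ccl34b.1+ and 2225 to 2994 CPM in untreated ccl34b.1- libraries. The defining microglial genes apoeb and P2RY12 stood at 14068 and 131 CPM in the former and at 92.2 and 0.0787 CPM in the latter, whereas the macrophage gene MPEG1 (ENSDARG00000055290) stood at 898 and 1174 CPM. Both gates thus held mpeg1 transcript, but the label of microglia goes against the low apoeb and near-absent P2RY12 of the ccl34b.1- libraries.

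Every member that passed the test between gates was lower in ccl34b.1+ than in ccl34b.1- cells. Tests were edgeR's quasi-likelihood test with Benjamini-Hochberg adjustment over all genes tested, at an adjusted p under 0.05. In untreated fish 5 of 6 members were lower, against 1.61% of all 8658 genes tested that were lower, 2.1% that were higher and 3.71% in either direction. In control fish it was 4 of 6 (0.362% of 12421 genes were lower, 0.507% higher, 0.869% either way), after PBS 6 of 6 (1.48% lower, 1.21% higher, 2.69% either way) and after E. coli 4 of 6 (1.43% lower, 0.886% higher, 2.31% either way). ACTN1, CNN3 and tmsb4x were lower in ccl34b.1+ cells in all 4 comparisons, as were 19 of the 8201 genes tested in all of them (0.232%). These 4 comparisons share no library. The members were chosen with earlier results of these data known, so the shares here and below describe them and do not test them as a set. In such bulk libraries, fewer cells of a type and less RNA per cell cannot be told apart.

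**Figure D1:**
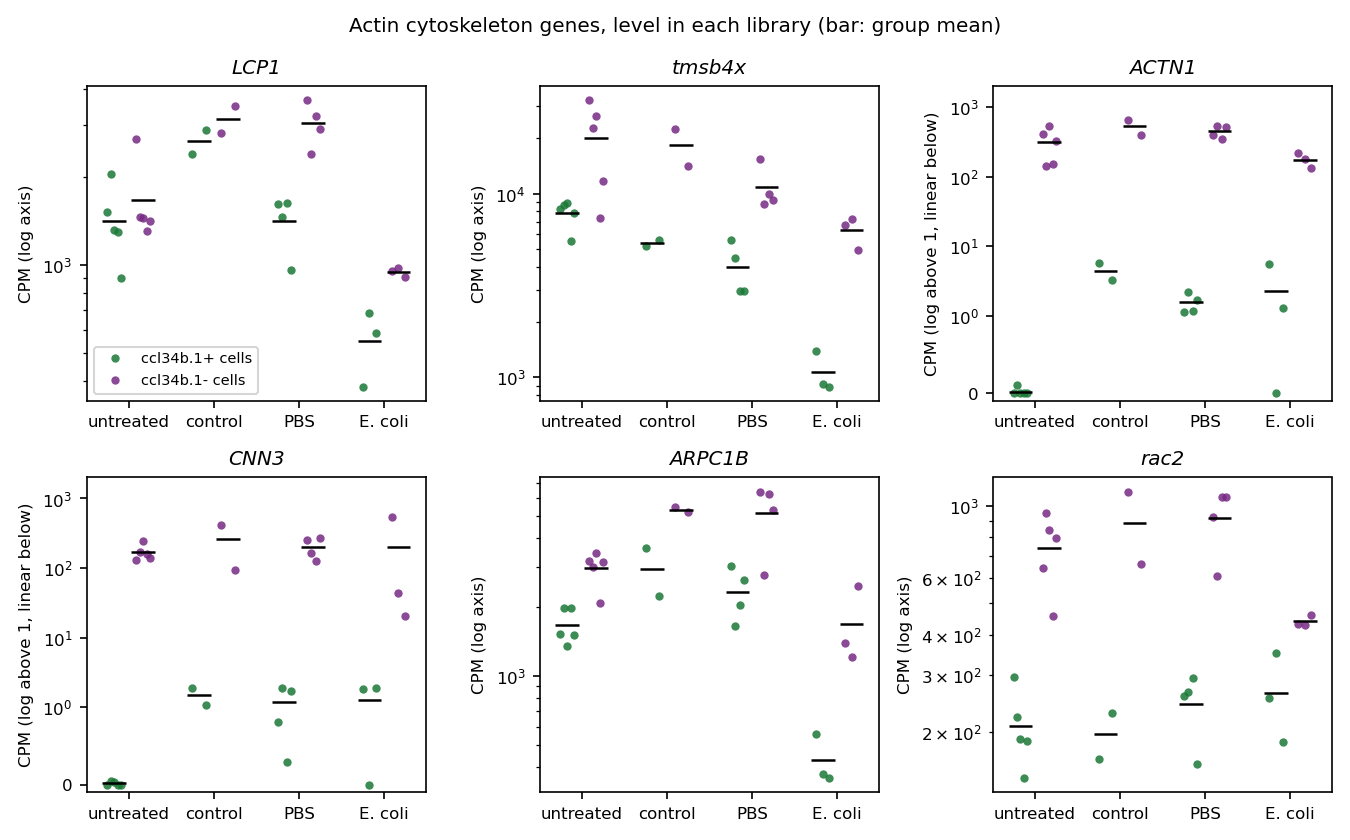
CPM of each member (vertical axis, logarithmic, or for ACTN1 and CNN3 linear near 0 and logarithmic above) in each of the 28 libraries (points) by treatment and gate, with the group mean as a bar. ACTN1 and CNN3 lie near 0 in all ccl34b.1+ libraries, while within each gate of the injection experiment the means of LCP1, tmsb4x and ARPC1B are lowest in E. coli fish.

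The bundling protein gene LCP1 overlapped between the gates of untreated fish. Its level was 1515, 2047, 1313, 1295 and 898 CPM in ccl34b.1+ libraries 1 to 5 and 2691, 1461, 1448, 1308 and 1409 CPM in ccl34b.1- libraries 1 to 5. The groups overlap, and ccl34b.1- library 1 stands above its group. The fitted log2 fold change (ccl34b.1+ over ccl34b.1-, as in all gate comparisons here) was -0.23 (95% interval -0.80 to 0.33), with an adjusted p of 0.998 in edgeR's test. Control fish had 2394 and 2899 against 2825 and 3488 CPM, again overlapping. PBS fish differed: 1609, 1452, 1621 and 963 CPM in ccl34b.1+ stood against 3656, 2385, 3223 and 2922 CPM in ccl34b.1- libraries. These groups did not overlap, and LCP1 was 2.16-fold lower in ccl34b.1+ cells of PBS fish (log2 fold change -1.11 ± 0.28, SE; edgeR adjusted p = 0.0188). The call was lost without ccl34b.1+ library 2 (adjusted p = 0.0538) or 4 (0.108) or without ccl34b.1- library 1 (0.0572) or 3 (0.0566). In E. coli fish, 383, 684 and 584 CPM in ccl34b.1+ lay below 951, 976 and 909.8 CPM in ccl34b.1- libraries, a log2 difference of -0.78 ± 0.32 that missed the threshold (adjusted p = 0.19 in edgeR's test).

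The crosslinker gene ACTN1 separated the gates almost completely. In untreated fish the 5 ccl34b.1+ libraries held 2 counts of ACTN1 in all, both in library 2, while ccl34b.1- libraries 1 to 5 held 410.3, 144, 526, 149 and 321 CPM, from 24834 counts. The ratio of ccl34b.1- to ccl34b.1+ counts, scaled to depth, was 17493, with a 95% counting interval of 4842 to 144449.8, and the edgeR adjusted p was 8.72e-06. Such intervals cover counting error only, since the libraries carry no molecular identifiers and reads amplified from a molecule are counted again. Control libraries held 5.69 and 3.24 CPM in ccl34b.1+ against 653 and 398 CPM in ccl34b.1- cells (log2 fold change -6.87 ± 1.12, SE; adjusted p = 0.00037, edgeR). After PBS the ccl34b.1+ libraries held 1.14 to 2.19 CPM, against 393, 524, 344 and 516 CPM in ccl34b.1- libraries (log2 fold change -8.14 ± 0.84, adjusted p = 5.25e-08, edgeR). E. coli fish had 5.55, 0 and 1.28 CPM in ccl34b.1+ and 215, 177 and 133 CPM in ccl34b.1- libraries. The log2 fold change there was -6.24 ± 0.89 (edgeR adjusted p = 2.88e-05), and -8.00 without ccl34b.1+ library 1, which held 24 of the 30 counts. No ccl34b.1+ library reached the lowest ccl34b.1- library in any treatment.

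CNN3, the side-binding member, showed the same separation. Untreated ccl34b.1+ libraries held 2 counts in all and 3 of the 5 held none, while ccl34b.1- libraries held 132, 170.4, 247, 158 and 139 CPM. Scaled to depth, the ratio was 10528 with a counting interval of 2914 to 86944 (edgeR adjusted p = 1.73e-05). Control ccl34b.1+ libraries held 1.90 and 1.08 CPM and control ccl34b.1- libraries 422 and 93.9 CPM (log2 fold change -7.41 ± 1.57, adjusted p = 0.00943, edgeR). That call rested on all 4 libraries but 1: it was lost without ccl34b.1+ library 1 (adjusted p = 0.125) or 2 (0.185) or ccl34b.1- library 1 (0.163). PBS fish had 0.295 to 1.88 CPM in ccl34b.1+ and 252, 167, 127 and 268 CPM in ccl34b.1- libraries (log2 fold change -7.42 ± 1.11, adjusted p = 3.75e-05, edgeR). E. coli fish had 1.85, 0 and 1.91 CPM in ccl34b.1+ libraries, while the ccl34b.1- libraries spread widely, with 542 CPM in library 1, 43.5 in library 2 and 20.3 in library 3. The log2 fold change after E. coli was -7.29 ± 1.27 (edgeR adjusted p = 0.000554), and -4.62 with an adjusted p of 0.0162 without ccl34b.1- library 1, which alone raised the mean of that group from 31.9 to 202 CPM.

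Markers of smooth muscle and mural cells were read beside ACTN1 and CNN3, since calponins are known from contractile cells. Of 10 mural cell IDs, the summed level was 174 to 388 CPM in untreated ccl34b.1+ and 45.6 to 219.7 CPM in untreated ccl34b.1- libraries, the opposite order. After E. coli it was 39.8 to 75.1 and 81.3 to 137 CPM. The defining genes acta2 and PDGFRB averaged at most 7.34 and 3.37 CPM in ccl34b.1- groups. In ccl34b.1+ cells acta2 had no counts in control, PBS or E. coli fish. After E. coli, 3 of the 10 IDs had counts in that gate: PDGFRB, rgs5b and TAGLN (ENSDARG00000033466). TAGLN (ENSDARG00000033466, transgelin, a calponin-related actin binder) went with the members, at 0.0459 CPM in ccl34b.1+ and 58.6 CPM in ccl34b.1- cells of untreated fish. The other TAGLN ID (ENSDARG00000045408) went the other way there, with counts in ccl34b.1+ and none in ccl34b.1- libraries. B cell markers (4 IDs) summed to 0 to 3.11 CPM in untreated ccl34b.1+ and 3.76 to 1049 CPM in untreated ccl34b.1- libraries, and to 0.339 to 136 CPM in PBS ccl34b.1- libraries. T cell markers reached at most 235 CPM in a ccl34b.1- library, with lck and ZAP70 at 0 throughout. Endothelial markers (7 IDs) were higher in the other gate, at 265 to 598 CPM in untreated ccl34b.1+ and 5.72 to 158 CPM in untreated ccl34b.1- libraries, mostly from pecam1a, with kdrl at most at 0.371 CPM on average. Over all libraries, neuron markers summed to at most 33.0 CPM, radial glia markers to at most 72.8 CPM, oligodendrocyte markers to 1.72 to 625 CPM in libraries of both gates, and erythrocyte markers to 0. Neutrophil markers were 3 IDs, with lyz at 0 in all libraries and mpx not matched. They summed to 42.1, 113, 126, 0 and 0 CPM in untreated ccl34b.1- libraries 1 to 5, all from npsn. In untreated ccl34b.1+ libraries they reached at most 0.765 CPM. The 3 ccl34b.1- libraries that held npsn also had the 3 highest tmsb4x levels of their group. In the same libraries 1 to 5, B cell markers summed to 3.76, 118, 347, 1049 and 448 CPM. Library 4, highest for B cell and T cell markers (1049 and 235 CPM), had the lowest tmsb4x of the group (7334 CPM). In E. coli fish the neutrophil markers summed to 0.406, 553 and 49.1 CPM in ccl34b.1- and at most 1.23 CPM in ccl34b.1+ libraries. There tmsb4x stood at 6727, 7257 and 4919 CPM in ccl34b.1- libraries 1 to 3. Library 2 was highest for both, while library 3 held more neutrophil transcript and less tmsb4x than library 1. Over control and PBS fish the neutrophil markers reached 13.7 CPM in ccl34b.1+ and 4.404 CPM in ccl34b.1- libraries. Thrombocyte markers, read because these cells are rich in actin genes, stayed at or under 0.339 CPM. The part of the lymphocyte and neutrophil transcripts in the differences between gates was not tested.

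The monomer-binding gene tmsb4x was lower in ccl34b.1+ cells in all 4 treatments. Untreated ccl34b.1+ libraries held 8221, 8645, 8872, 5552 and 7867 CPM and untreated ccl34b.1- libraries 32242, 22667, 26446, 7334 and 11769 CPM. The ccl34b.1- libraries differed more among themselves, and library 4 lay inside the ccl34b.1+ range. The log2 fold change was -1.36 ± 0.32 (edgeR adjusted p = 0.0257), and the call was lost when any library other than ccl34b.1- library 4 or 5 was left out (adjusted p from 0.053 to 0.0746). Control libraries held 5176 and 5575 against 22544 and 14232 CPM (log2 fold change -1.77 ± 0.37, adjusted p = 0.00857, edgeR). Here the call was lost without ccl34b.1+ library 1 (adjusted p = 0.101) or 2 (0.0528) or ccl34b.1- library 1 (0.241). After PBS, 5578, 4442, 2953 and 2958 CPM in ccl34b.1+ lay below 15453, 8832, 9922 and 9195 CPM in ccl34b.1- libraries (log2 fold change -1.45 ± 0.26, edgeR adjusted p = 0.000575). The gates stood farthest apart after E. coli, at 1384, 915 and 889 against 6727, 7257 and 4919 CPM, a 5.93-fold difference (log2 fold change -2.57 ± 0.31, adjusted p = 2.13e-06, edgeR). Control, PBS and E. coli gates did not overlap. In limma voom with quality weights, tmsb4x missed the threshold in all 4 treatments (adjusted p from 0.0993 to 0.939), and its untreated call was also lost with no filter on low counts (0.114).

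The Arp2/3 subunit gene ARPC1B was lower in ccl34b.1+ cells in untreated, PBS and E. coli fish. Untreated libraries held 1531, 1978, 1349, 1989 and 1509 CPM in ccl34b.1+ and 3195, 2982, 3458, 2094 and 3136 CPM in ccl34b.1- cells. They did not overlap, and ARPC1B was 1.78-fold lower (log2 fold change -0.83 ± 0.20, edgeR adjusted p = 0.0298). Leaving out any library other than library 4 of either gate lost the call (adjusted p from 0.0525 to 0.0861), as did a block for the replicate number (0.0849). Control libraries held 3617 and 2229 against 5465 and 5222 CPM, a log2 difference of -0.87 that did not pass (adjusted p = 0.789 in edgeR's test). PBS fish had 3026, 1649, 2045 and 2623 CPM in ccl34b.1+ and 6389.9, 2751, 6272 and 5328 CPM in ccl34b.1- libraries. There library 2 of ccl34b.1- fell inside the ccl34b.1+ range, the log2 fold change was -1.15 ± 0.30 (edgeR adjusted p = 0.027), and the call was lost without ccl34b.1+ library 2, 3 or 4 or ccl34b.1- library 1, 3 or 4 (adjusted p from 0.0528 to 0.125). After E. coli, 555, 371 and 358 CPM in ccl34b.1+ stood against 1398, 1214 and 2473 CPM in ccl34b.1- libraries, a 3.96-fold difference with no overlap (log2 fold change -1.99 ± 0.36, adjusted p = 0.000788, edgeR; 0.299 in limma voom).

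The GTPase gene rac2 was lower in ccl34b.1+ cells of untreated, control and PBS fish. Untreated libraries held 296, 223, 190.3, 144 and 189 CPM in ccl34b.1+ and 644, 953, 844, 458 and 799 CPM in ccl34b.1- cells. All ccl34b.1- libraries lay above all ccl34b.1+ libraries, by 3.55-fold on average (log2 fold change -1.83 ± 0.30, edgeR adjusted p = 0.00245), and the call held without any one library. Control libraries held 165 and 229 against 1106 and 663 CPM (log2 fold change -2.16 ± 0.54, edgeR adjusted p = 0.041), a call that each of the 4 libraries was needed for. It was also lost with a block for treatment and replicate number (edgeR adjusted p = 0.127) and with no filter on low counts (0.256). After PBS, 258, 267, 294 and 159.5 CPM in ccl34b.1+ stood against 925, 606, 1063 and 1067 CPM in ccl34b.1- libraries (log2 fold change -1.90 ± 0.38, adjusted p = 0.00177, edgeR). E. coli fish had 255, 351 and 187 CPM in ccl34b.1+ and 433, 428 and 462 CPM in ccl34b.1- libraries. Those groups did not overlap either, but their log2 difference was -0.74 (95% interval -1.60 to 0.12) and missed the threshold (adjusted p = 0.309 in edgeR's test).

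**Figure D2:**
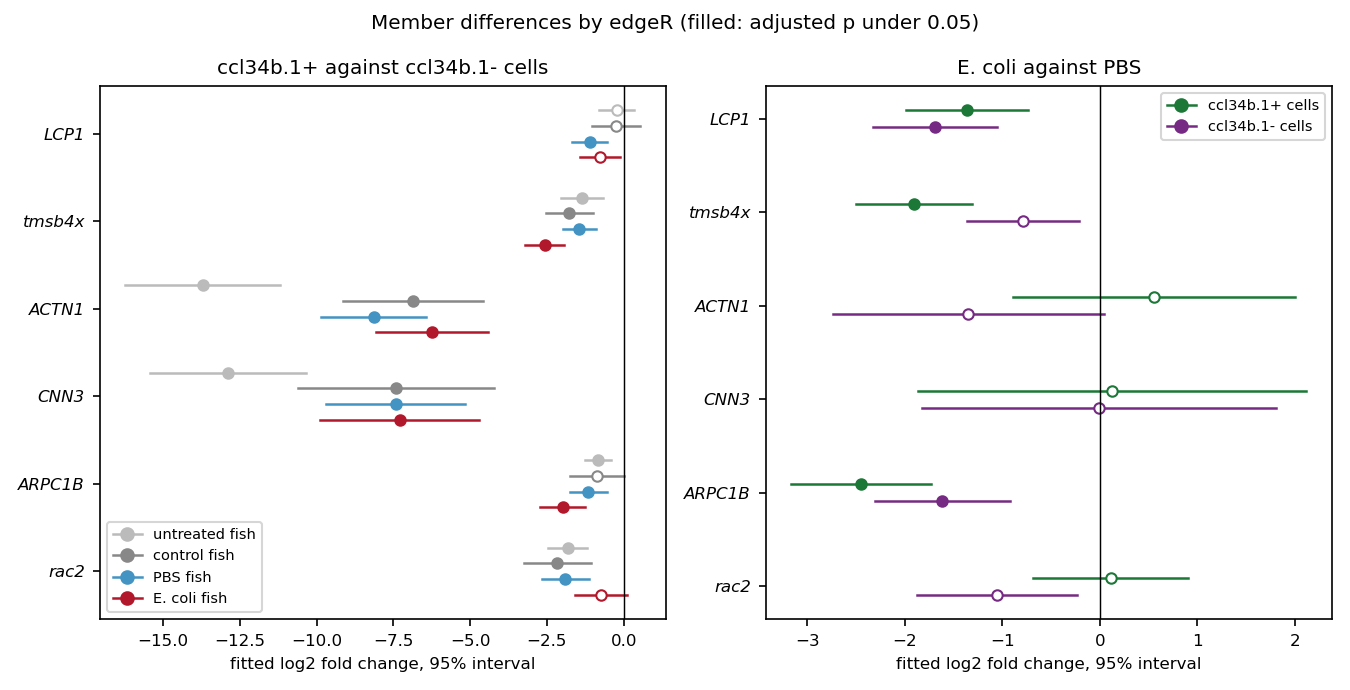
Fitted log2 fold changes with 95% intervals (horizontal axis) for the 6 members, at left between gates in the 4 treatments and at right for E. coli against PBS in each gate, with filled points past the threshold. The ACTN1 and CNN3 differences between gates, which for untreated fish rest on 2 counts in ccl34b.1+ cells and depend on the fit's prior count, are set apart from those of the other members, and the E. coli intervals of rac2 lie on 0 in ccl34b.1+ cells and below it in ccl34b.1- cells.

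The paralog rac1a, which encodes a Rac GTPase found in most cell types, ran opposite to rac2. Its level was 307 to 719 CPM in untreated ccl34b.1+ and 0.817 to 104 CPM in untreated ccl34b.1- libraries, and the gates did not overlap in any of the 4 treatments. The difference passed in control fish, at 453 ± 28.0 against 5.29 ± 5.41 CPM (SD, n = 2 and 2; log2 fold change 6.41 ± 1.38, SE; edgeR adjusted p = 0.0107), and it was lost without ccl34b.1+ library 1 (adjusted p = 0.057), ccl34b.1- library 1 (0.363) or ccl34b.1- library 2 (0.0523). It missed the threshold in untreated (log2 fold change 3.26, adjusted p = 0.0775), PBS (2.55, adjusted p = 0.0885) and E. coli fish (3.31, adjusted p = 0.0689) in edgeR's test. The IDs named RAC1 (ENSDARG00000087954 and ENSDARG00000099506) gave no call in edgeR's test. The order opposite to rac2 is described for rac1a alone.

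**Figure D3:**
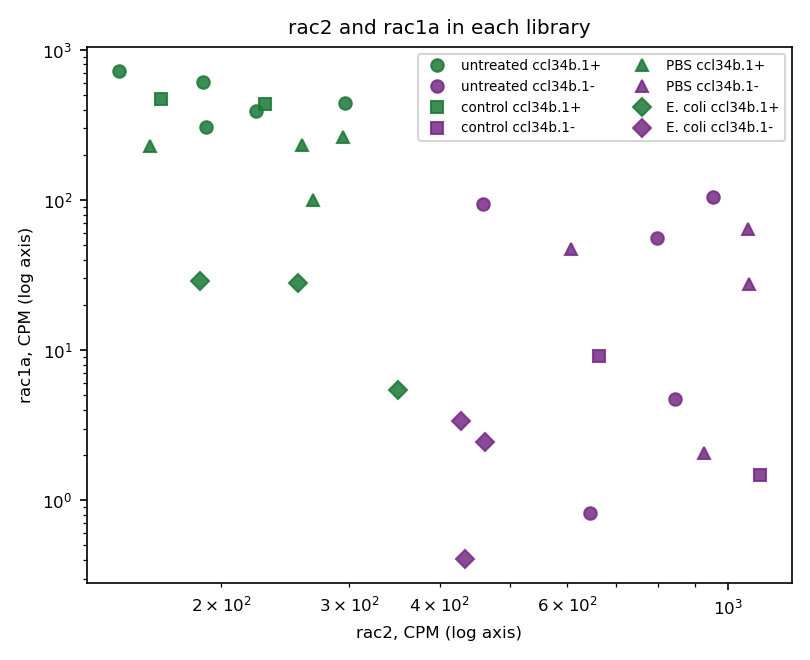
CPM of rac2 (horizontal axis) against CPM of rac1a (vertical axis), both logarithmic, with 1 point per library, coloured by gate and shaped by treatment. The ccl34b.1+ libraries lie towards low rac2 and high rac1a. On the rac1a axis the 3 E. coli libraries of that gate lie below its control and PBS libraries, but rac1a was not called after E. coli in edgeR's test. Untreated libraries were scaled separately.

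Other relatives of the members gave no call where they were tested. Of 27 IDs of these families, members and rac1a included, 14 were tested in the injection experiment and 12 in untreated fish. The rest were removed by the filter on low counts. The second ID named CNN3 (ENSDARG00000029856) averaged at most 12.4 CPM in any group. CNN2, another calponin, averaged 175 to 313 CPM over the 8 groups and actn4, another alpha-actinin, 19.8 to 126 CPM, and neither passed in any of the 9 comparisons. ARPC1A, the alternative form of the ARPC1B subunit, averaged 59.6 to 172 CPM and tmsb1 36.6 to 168 CPM, also with no call. The plastins PLS1 and PLS3 averaged at most 0.00707 and 0.379 CPM. How the authors counted reads shared by near-identical genes is not given in the sources used here, so levels of paralogs could be split between IDs.

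After E. coli, compared with PBS, members fell in both gates. In ccl34b.1+ cells LCP1, tmsb4x and ARPC1B fell, 3 of 6 members against 0.813% of all 12421 genes that fell, 0.7% that rose and 1.51% that changed either way. In ccl34b.1- cells LCP1 and ARPC1B fell, 2 of 6 against 0.169% that fell, 0.233% that rose and 0.403% either way. In limma voom with quality weights, LCP1 alone held in ccl34b.1+ cells (adjusted p = 0.604 for tmsb4x and 0.155 for ARPC1B), and ARPC1B was lost in ccl34b.1- cells (0.0985), where tmsb4x was called instead. In edgeR's test LCP1 and ARPC1B were among 5 genes that fell in both gates (0.0403% of those tested). The other 3 were TIMP4 (ENSDARG00000100795), tnfsf12 and ENSDARG00000080337, which has no name. Each fish gave a library to both gates, so the gates share fish but no library, and the PBS and E. coli libraries are those of the gate comparisons above.

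LCP1 stood at 1411 ± 309 CPM after PBS and 550.3 ± 154 CPM after E. coli in ccl34b.1+ cells (SD, n = 4 and 3), and no library overlapped. The fall was 2.57-fold (log2 fold change -1.36 ± 0.31, SE; edgeR adjusted p = 0.0128), and it missed the threshold without E. coli library 1 (adjusted p = 0.128) or 3 (0.0587). In ccl34b.1- cells it fell 3.22-fold, from 3047 ± 534 to 946 ± 33.4 CPM (log2 fold change -1.69 ± 0.31, edgeR adjusted p = 0.00603). ARPC1B fell 5.46-fold in ccl34b.1+ cells, from 2336 ± 610 to 428 ± 110.3 CPM (log2 fold change -2.45 ± 0.35, edgeR adjusted p = 5.18e-05). Its fall in ccl34b.1- cells was 3.06-fold, from 5185 ± 1691 to 1695 ± 681 CPM (log2 fold change -1.61 ± 0.34, edgeR adjusted p = 0.0181), and it was lost without PBS library 3 (adjusted p = 0.0627), E. coli library 1 (0.0919) or E. coli library 2 (0.111) of that gate. None of the E. coli libraries reached the PBS range for either gene in either gate.

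For tmsb4x the fall in ccl34b.1+ cells was 3.75-fold, from 3983 ± 1274 to 1062 ± 279 CPM (log2 fold change -1.91 ± 0.29, SE; n = 4 and 3; edgeR adjusted p = 0.000118). In ccl34b.1- cells tmsb4x stood at 10850 ± 3102 CPM after PBS and 6301 ± 1226 CPM after E. coli, without overlap, but the difference missed the threshold (log2 fold change -0.78 ± 0.28, edgeR adjusted p = 0.224). ACTN1 in ccl34b.1- cells stood at 444 ± 89.6 and 175 ± 40.9 CPM, also without overlap and also short of the threshold (log2 fold change -1.35 ± 0.68, edgeR adjusted p = 0.265). In ccl34b.1+ cells ACTN1 and CNN3 had 1 to 7 and 1 to 6 counts per PBS library. Per E. coli library of that gate they had 0 to 24 and 0 to 9 counts, at most 5.55 and 1.91 CPM. A fall or a small change there was not detectable at this depth. CNN3 in ccl34b.1- cells averaged 204 ± 67.7 and 202 ± 295 CPM, and 31.9 CPM after E. coli without library 1.

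Levels of rac2 in ccl34b.1+ cells were 245 ± 58.8 CPM after PBS and 264 ± 82.2 CPM after E. coli (SD, n = 4 and 3), a log2 fold change of 0.11 with a 95% interval of -0.69 to 0.91. In ccl34b.1- cells rac2 stood at 915 ± 217 and 441 ± 18.3 CPM, where the 3 E. coli libraries lay below the 4 PBS libraries (log2 fold change -1.05 ± 0.40, edgeR adjusted p = 0.236; adjusted p = 0.0119 in DESeq2). The difference between the gates in their E. coli effect was 1.17 ± 0.56 on the log2 scale for rac2 (edgeR adjusted p = 0.342). Of the 6 members, 0 passed this test of the difference in edgeR, DESeq2 or limma voom, while 0.274% of all genes passed in edgeR (0.129% with a positive and 0.145% with a negative difference). At an unadjusted p under 0.05 in edgeR's test were 2 members (tmsb4x and rac2), and 1734 of all 12421 genes. Apart from rac2, the members' differences ran from -1.12 for tmsb4x (95% interval -1.92 to -0.33, adjusted p = 0.214) through -0.84 for ARPC1B (-1.76 to 0.09), 0.14 for CNN3 (-2.53 to 2.80) and 0.33 for LCP1 (-0.52 to 1.18) to 1.90 for ACTN1 (-0.10 to 3.90).

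Marker sums also moved with E. coli. Macrophage and microglia markers summed to 28716 to 50283 CPM in PBS and 12055 to 15989 CPM in E. coli ccl34b.1+ libraries, and to 3657 to 5141 and 1682 to 3417 CPM in ccl34b.1- libraries. In untreated ccl34b.1+ libraries most of this sum came from apoeb, so the sum need not follow the other macrophage IDs. The part of apoeb in the sums of injected fish is not given here. Neutrophil markers (3 IDs) summed to 0 to 0.113 CPM in PBS and 0.406 to 553 CPM in E. coli ccl34b.1- libraries. These sums rest on 1 ID with counts in PBS (mmp13a) and 2 in E. coli libraries (npsn and mmp13a). Mural cell markers summed to 177 to 472 CPM in PBS and 39.8 to 75.1 CPM in E. coli ccl34b.1+ libraries, without overlap, and to 67.4 to 119.5 and 81.3 to 137 CPM in ccl34b.1- libraries. Oligodendrocyte markers summed to 194 to 290.3 CPM in PBS and 45.3 to 113 CPM in E. coli ccl34b.1- libraries, again without overlap, but overlapped in ccl34b.1+ libraries. The part of these shifts in the changes of the members was not tested. The median log2 fold change of all genes after E. coli was -0.19 in ccl34b.1+ and -0.08 in ccl34b.1- cells, smaller than any fall called among the members. With DESeq2's size factors it was -0.19 and -0.29, and the same numbers of members passed.

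Injection of PBS alone, compared with control fish, gave no call among the members in edgeR's test or DESeq2, and 1 in each gate in limma voom. Of all 12421 genes, 0 passed edgeR's test in either gate (a share of 0%), with 628 genes in ccl34b.1+ and 642 in ccl34b.1- cells at an unadjusted p under 0.05. DESeq2 called 83 and 126 genes and limma voom 207 and 41. LCP1 in ccl34b.1+ cells stood at 2646 ± 357 CPM in controls and 1411 ± 309 CPM after PBS (SD, n = 2 and 4), with no overlap and a log2 difference of -0.91 ± 0.33 (adjusted p = 0.965 in edgeR's test, 0.0147 in limma voom). In ccl34b.1- cells tmsb4x stood at 18388 ± 5877 and 10850 ± 3102 CPM, overlapping, with a log2 difference of -0.76 ± 0.31 (adjusted p = 0.943 in edgeR's test, 0.000961 in limma voom). With 2 control fish, these values have wide intervals: that of rac2 ran from -0.61 to 1.23 in ccl34b.1+ and from -0.86 to 0.96 in ccl34b.1- cells.

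Ordered by mean level over the 8 groups, neighbouring groups mostly overlapped, with the reservation that the 2 experiments were scaled separately. ACTN1 had all 4 ccl34b.1- groups (175 to 525 CPM) above all 4 ccl34b.1+ groups (0.0214 to 4.47 CPM), with no overlap at that step. CNN3 broke at the same place, between 169 ± 46.1 CPM in untreated ccl34b.1- and 1.49 ± 0.578 CPM in control ccl34b.1+ libraries. For rac2 the step lay between E. coli ccl34b.1- (441 CPM) and E. coli ccl34b.1+ libraries (264 CPM), and the 4 ccl34b.1+ groups, from 197 to 264 CPM, overlapped with their neighbours. LCP1, tmsb4x and ARPC1B had E. coli ccl34b.1+ libraries at the bottom, at 550.3, 1062 and 428 CPM, and this group did not overlap with the next one up, while the neighbours above it overlapped throughout.

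Across the 18 libraries of the injection experiment, ACTN1 and CNN3 had a Pearson correlation of log2 CPM of 0.966, and 0.995 across the 10 untreated libraries. LCP1 and ARPC1B had 0.881 and 0.453, tmsb4x and ARPC1B 0.886 and 0.778, and LCP1 and CNN3 0.475 and 0.292. These describe libraries that share gates and treatments. Among 4372 named genes with a mean of at least 20 CPM, those most like ACTN1 over the 18 libraries were siglec15l (0.986), KCNK18 (0.977) and si:ch211-214p16.1 (0.974), and those most like CNN3 were MON1B (ENSDARG00000035686, 0.970), ACTN1 itself (0.966) and GPR37 (ENSDARG00000074563, 0.957). tmsb4x was most like arhgdig (0.948), pfn1 (0.898) and PIK3CD (0.896), and ARPC1B like pfn1 (0.948), ptmab (0.942) and GM2A (ENSDARG00000088439, 0.922). The nearest to rac2 were hcst (0.927), KCNK18 (0.917) and TMEM178A (0.915), and to LCP1 zgc:152774 (0.896), ZDHHC18 (ENSDARG00000105034, 0.895) and TTC39C (0.894).

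A wider list of actin genes placed the members among their partners. It held 67 entries for monomer binders, severing and capping proteins, the Arp2/3 complex and its activators, GTPases and their regulators, formins, crosslinkers, myosins and membrane linkers, of which 64 matched 107 IDs. Without the 6 members, edgeR called 4 of 72 tested IDs lower in ccl34b.1+ cells of untreated fish and 0 higher (median log2 fold change -0.42, against -0.01 for all genes tested, of which 1.61% were lower). At an unadjusted p under 0.05 in edgeR's test were 12 lower and 5 higher, against 914 of all 8658 genes either way. DESeq2 called 9 lower and 1 higher (583 of all genes either way) and limma voom 5 and 1 (602). In control fish edgeR called 0 of 82 lower and 1 higher (rac1a), against 0.362% and 0.507% of all genes. At an unadjusted p under 0.05 were 5 lower and 3 higher, against 690 of all 12421 genes. DESeq2 called 3 lower and 3 higher (456 of all genes) and limma voom 5 and 4 (662). After PBS edgeR called 4 of 82 lower and 1 higher (1.48% and 1.21% of all genes, median -0.42 against -0.11). At an unadjusted p under 0.05 were 16 lower and 4 higher, against 2461 of all genes. DESeq2 called 11 lower and 3 higher (1102 of all genes) and limma voom 7 and 3 (714). In E. coli fish edgeR called 8 lower and 0 higher (1.43% and 0.886% of all genes, median -0.88 against -0.10). At an unadjusted p under 0.05 were 26 lower and 4 higher, against 2639 of all genes. DESeq2 called 18 lower and 3 higher (1589 of all genes) and limma voom 9 and 1 (464).

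The list genes lower in ccl34b.1+ cells included pfn1, WAS and WIPF1. WAS and WIPF1 were among 11 Arp2/3 activator IDs tested. Of these, 6, 3 and 4 had positive log2 fold changes in untreated, PBS and E. coli fish (medians 0.29, -0.73 and -1.58). WIPF1, which binds and stabilises the WAS protein, stood at 37.4 ± 30.1 against 494 ± 261 CPM in untreated fish (SD, n = 5 and 5; log2 fold change -3.72 ± 0.65, edgeR adjusted p = 0.0036), at 3.31 ± 4.31 against 150.2 ± 39.9 CPM after PBS and at 0.460 ± 0.0333 against 158 ± 73.4 CPM after E. coli. Those 3 calls held in every fit that left out a library. WAS, which activates the Arp2/3 complex in blood cells, had log2 fold changes of -1.71, -2.79 and -2.52 in the same treatments. Its untreated call held in 3 of the 10 fits that left out a library (adjusted p up to 0.0937) and was lost with the replicate block (0.0737) and with no filter (0.0585). Its E. coli call held in 2 of 6 (up to 0.217) and was lost with DESeq2's size factors (0.0551). Profilin, pfn1, which feeds subunits to growing filaments, had -1.03, -1.36 and -1.69, with its untreated call held in 3 of 10 such fits (adjusted p up to 0.0837) and lost with no filter (0.114). In limma voom pfn1 missed the threshold in all 3 treatments (adjusted p = 0.123, 0.269 and 0.705). The filament-coating tropomyosin gene tpm1 was lower after PBS (2.73 ± 3.36 against 116 ± 56.7 CPM) and E. coli (0.153 ± 0.133 against 34.7 ± 25.9 CPM), calls held in 5 of 8 and 3 of 6 such fits (adjusted p up to 0.0727 and 0.076).

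Further members of the list passed in E. coli fish. ARPC5 (ENSDARG00000019062), another Arp2/3 subunit, stood at 5.03 ± 3.56 against 213 ± 148 CPM (log2 fold change -5.39 ± 0.74, edgeR adjusted p = 1.68e-05). The cortactin relative hcls1 stood at 14.03 ± 22.5 against 308 ± 159 CPM (log2 fold change -4.45 ± 0.99, and -8.18 without ccl34b.1+ library 1), and the talin gene TLN1, which links integrins to actin, at 103 ± 20.9 against 410.0 ± 137 CPM, a call held in 1 of 6 fits that left out a library (adjusted p up to 0.155) and lost with the replicate block (0.142) and with no filter (0.182). The list gene arhgdig was lower in ccl34b.1+ cells of E. coli fish, a call held in 6 of 6 such fits (edgeR adjusted p up to 0.0409). Its call in untreated fish held in 2 of 10 (up to 0.126) and was lost with the replicate block and with no filter. The one list gene higher in ccl34b.1+ cells of PBS fish was ABI1 (ENSDARG00000062991), a part of the complex that passes Rac signals to Arp2/3, at 56.6 ± 37.9 against 0.179 ± 0.150 CPM (log2 fold change 8.11 ± 2.05, edgeR adjusted p = 0.0202), a call held in 4 of 8 such fits (adjusted p up to 0.0891).

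**Figure D4:**
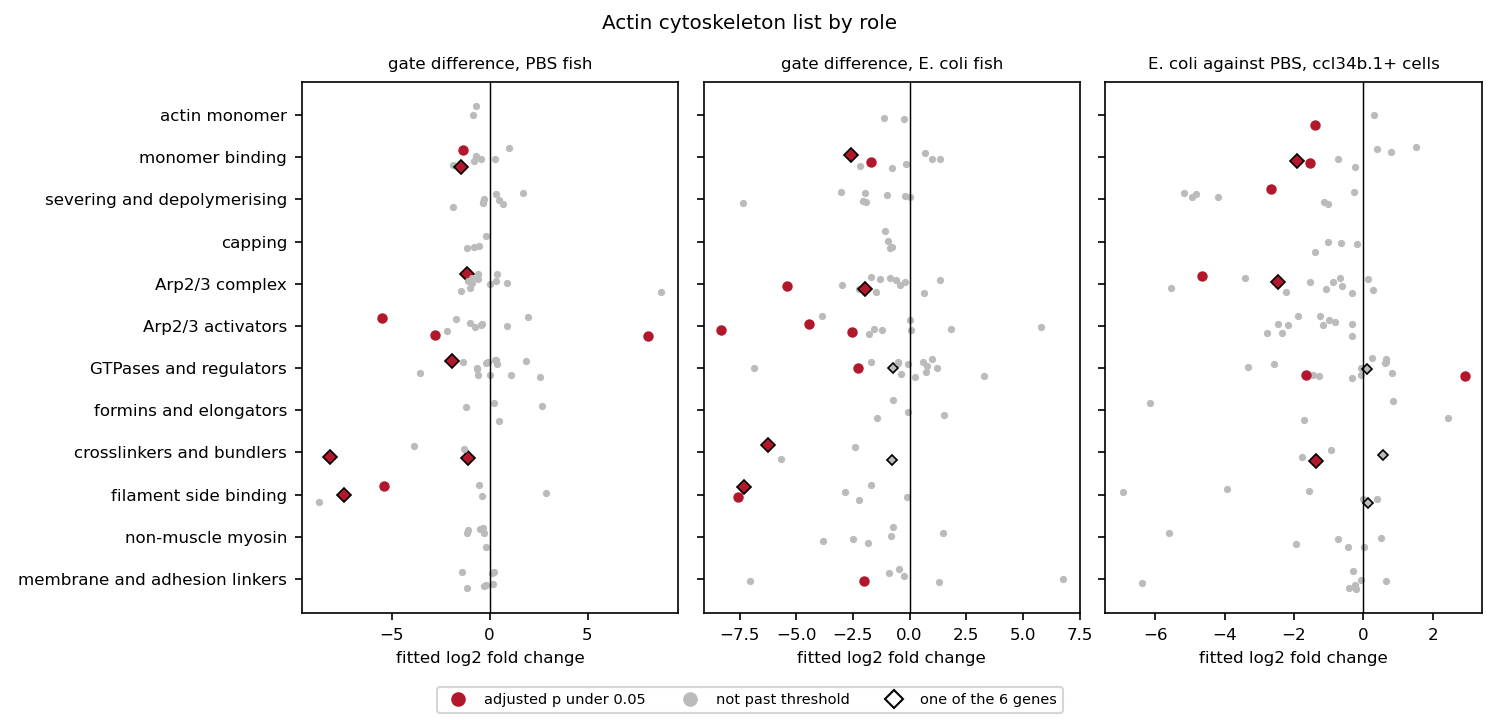
Fitted log2 fold changes (horizontal axis) of the tested IDs of the actin list by role (vertical axis). Red points passed the threshold, grey points did not, and the 6 members are outlined diamonds. Panels show the gates of PBS fish, the gates of E. coli fish and E. coli against PBS in ccl34b.1+ cells, each on its own scale. The called points lie to the left of 0 except ABI1 at 8.11 between the gates of PBS fish and RHOG at 2.93 after E. coli.

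After E. coli, compared with PBS, 5 of 82 list IDs outside the members fell in ccl34b.1+ cells and 1 rose in edgeR's test, against 0.813% and 0.7% of all genes (median log2 fold change -0.91, against -0.19 for all genes). DESeq2 called 15 lower and 1 higher (981 of all genes either way), and limma voom 5 and 1 (659). ARPC5 fell from 127 ± 57.0 to 5.03 ± 3.56 CPM (log2 fold change -4.65 ± 0.70, SE; edgeR adjusted p = 0.0001) and pfn1 from 6260 ± 1859 to 2136 ± 523 CPM (log2 fold change -1.55 ± 0.30, edgeR adjusted p = 0.00239). The actin gene actb1 fell from 3976 ± 742 to 1511 ± 412 CPM and arhgdig from 339 ± 88.6 to 107 ± 58.6 CPM, calls held in 5 and 2 of 7 fits that left out a library (adjusted p up to 0.117 and 0.297). With no filter the arhgdig call was lost as well (0.129). CFL1 (cofilin, which severs filaments) fell from 481 ± 533 to 76.2 ± 40.7 CPM, but its log2 fold change of -2.66 was -1.50 without PBS library 3 (adjusted p = 0.273). In limma voom pfn1, actb1 and CFL1 missed the threshold (adjusted p = 0.723, 0.224 and 0.155). RHOG (ENSDARG00000004301), a GTPase that acts upstream of Rac in engulfment in mammals and worms, rose from 151 ± 43.9 to 1147 ± 226 CPM (log2 fold change 2.93 ± 0.53, edgeR adjusted p = 0.00103), in all fits that left out a library. In ccl34b.1- cells 0 of 82 passed in edgeR's test (median -0.33 against -0.08). At an unadjusted p under 0.05 were 2 higher and 8 lower, against 2419 of all 12421 genes either way. DESeq2 called 9 lower (1194 of all genes either way) and limma voom 2 lower (75). In edgeR's test ARPC5 was the one list gene whose E. coli effect differed between the gates (-3.92 ± 0.84 on the log2 scale, edgeR adjusted p = 0.036), while 0.274% of all 12421 genes passed. That call held in 6 of 14 fits that left out a library (adjusted p up to 0.126) and was lost in limma voom (0.38). For this difference limma voom called 0 list genes (30 of all genes). DESeq2 called 2 with a positive and 1 with a negative difference (596 of all genes either way).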

How the data were processed

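RNA-seq libraries of 100 sorted cells were made by Smart-seq2 from poly(A) RNA, with 24 PCR cycles of cDNA and 12 of library, per the labels' protocols. The authors deposited 1 table of whole-number counts of reads per gene, 32520 IDs by 28 libraries. Per the submitters' processing notes, STAR, featureCounts and DESeq2 were used with build GRCz11 (danRer11). Versions and the treatment of strand and of multi-mapped reads are not given in the sources used here. Counts without molecular identifiers are not independent molecules. Columns were matched to samples by title, and 0 columns were left unused.

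Counts were fitted with edgeR 4.0.16 (R 4.3.3; TMM, filterByExpr, robust glmQLFit and glmQLFTest, two-sided, Benjamini-Hochberg over all genes tested). The 10 untreated libraries were fitted alone and the 18 of the injection experiment as 6 groups that share an estimate of the spread. CPM were computed here from counts, filtered library totals and TMM factors. Alternatives were DESeq2's size factors, no filter, DESeq2 1.42.0, limma 3.58.1 voom with quality weights, a replicate block, and each library left out in turn. The block was by replicate number in untreated fish. In the injection experiment it was by treatment and number for the gates and for the difference between gates in their E. coli effect. For E. coli against PBS and PBS against control it was by number alone, which ties same-numbered but separate fish of different treatments. Scripts were checked on simulated counts.

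The members and lists were chosen with earlier results of these data known. Named genes were the 6 members, other list genes past the threshold (up to 5 per direction by adjusted p; tpm1, TLN1 and WAS in E. coli fish fall outside this and were named after their values were seen, as were TAGLN, TIMP4, tnfsf12 and ENSDARG00000080337), relatives of the members, and the 3 genes most correlated with each member (log2 CPM with a prior count of 2, mean of at least 20 CPM). Markers of macrophages, neutrophils, B and T cells, thrombocytes, endothelium, mural cells, neurons, radial glia, oligodendrocytes and erythrocytes were summed, and 42 of 43 entries were matched. Each fish gave both gates, but no label ties the numbers of the 2 gates to a fish, so no block was used. No 2 columns were identical. 1 item is not reported here. Gene names came from a supplied table naming 29201 IDs. No genome was used here.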

Additional observations from a re-analysis of the deposited data

Results flagged for a closer look

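Within groups of 4 or 5 libraries, each member's highest and lowest library was compared with the rest of its group by the gap to its nearest neighbour over the group's range, and 3 of 24 groups stood out, where chance flags about 1 in 20. LCP1 in untreated ccl34b.1- library 1 stood at 2691 CPM, while the other 4 libraries held 1308 to 1461 CPM. For tmsb4x, PBS ccl34b.1- library 1 stood at 15453 CPM, while the other 3 held 8832 to 9922 CPM. ACTN1 in untreated ccl34b.1+ library 2 stood at 0.107 CPM (2 counts), where the other 4 libraries held 0, so that any count there would stand apart and the 1 in 20 does not apply to it. Without these libraries LCP1 remained uncalled between the untreated gates (log2 fold change 0.02), tmsb4x remained lower in ccl34b.1+ cells of PBS fish (called in all 8 fits that left out a library of those groups), and ACTN1 remained lower in untreated ccl34b.1+ cells (adjusted p = 3.71e-05, edgeR).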

How the results depend on the processing

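The 24 calls made for members kept their sign in all 293 refits and were lost in 53 of them. The 30 member results that were not called reversed in 35 of 385 refits. Same-numbered libraries of the 2 gates correlated by only 0.003 to 0.0389 in their deviations from group means, and all but those numbered 2 and 4 of PBS fish correlated best with their own number, a hint from the data that is not in the design. The 2 control numbers give 1 value, since deviations in a group of 2 mirror each other. How often such matches arise without pairing was not tested. The replicate block gave 187, 198, 448 and 393 calls between the gates of untreated, control, PBS and E. coli fish (321, 108, 334 and 287 without it), 105 for the difference between gates in their E. coli effect (34 without) and 1 for PBS against control in ccl34b.1+ cells. Under the block 4, 3, 6 and 4 members passed between gates, ARPC1B losing its untreated call (adjusted p = 0.0849) and rac2 its control call (0.127). For PBS against control in ccl34b.1- cells, where the block was by number alone, it moved 2 log2 fold changes across 0. These were LCP1, to a log2 fold change of 0.041, and CNN3, to one of 0.134. Without the filter the control, E. coli gate, E. coli in ccl34b.1+, E. coli in ccl34b.1-, difference and 2 PBS comparisons gave 175, 472, 284, 178, 146, 21 and 13 calls, and 4 members in untreated fish (tmsb4x adjusted p = 0.114) and 3 in control fish (rac2 0.256). DESeq2 called 583, 456, 1102 and 1589 genes between gates, 981 and 1194 after E. coli, 596 for the difference and 83 and 126 after PBS. With limma voom these were 602, 662, 714, 464, 659, 75, 30, 207 and 41, and it called 2 members between the E. coli gates, 1 (LCP1) after E. coli in ccl34b.1+ cells (the call of ARPC1B in ccl34b.1- cells was also lost, adjusted p = 0.0985) and 1 in each gate for PBS against control. Limma voom put the log2 fold changes of ACTN1 and CNN3 after E. coli in ccl34b.1+ cells at -1.08 and -0.74. It put the log2 fold change of CNN3 for PBS against control in ccl34b.1- cells at 0.0278. The log2 fold change of rac2 in that last comparison was -0.0128 with DESeq2's size factors and -0.0127 in DESeq2. DESeq2's size factors turned the split of higher and lower calls after E. coli in ccl34b.1- cells from 29 and 21 to 24 and 36, and that of the difference from 16 and 18 to 18 and 11. They moved the median log2 fold change of all genes between the PBS gates from -0.11 to -0.23 and for the difference from -0.18 to 0.02. Leaving out 1 library gave 231 to 315 calls in untreated, 38 to 61 in control, 227 to 308 in PBS and 162 to 351 in E. coli gates, 101 to 162 and 26 to 90 after E. coli in ccl34b.1+ and ccl34b.1- cells, 14 to 55 for the difference and 0 and 0 to 1 for PBS against control in ccl34b.1+ and ccl34b.1- cells, with 3 to 5, 1 to 3, 4 to 6, 4 to 4, 2 to 3, 1 to 2, 0 and 0 members. Without 1 library, log2 differences that were not called crossed 0: between the untreated gates LCP1 ran from -0.34 to 0.0236. For PBS against control in ccl34b.1+ cells CNN3 ran from -0.70 to 0.0957 and ARPC1B from -0.64 to 0.067, and in ccl34b.1- cells LCP1 ran from -0.19 to 0.11, ACTN1 from -0.55 to 0.17, CNN3 from -1.05 to 1.12, ARPC1B from -0.15 to 0.17 and rac2 from -0.27 to 0.47. After E. coli in ccl34b.1+ cells ACTN1 ran from -1.20 to 1.13, CNN3 from -0.30 to 0.69 and rac2 from -0.14 to 0.31, CNN3 ran from -2.68 to 0.47 in ccl34b.1- cells and its difference between gates from -0.34 to 2.80. The cause of these changes was not tested. Where an arm was left with 1 library, it was assumed to vary like the other groups. Of 25 calls for other list genes, 12 held in every fit that left out a library.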
